A study of Mus musculus with 6 samples.

Results

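The genes described here are used as markers of neural crest-derived cells, though several of them are also made by other cells of the embryonic ureter. Of the 35 genes, 7 belong to crest cells, Schwann cell precursors and glia, 26 to autonomic neurons, and 2, *Nrg1* and *L1cam*, to both. They were taken from a list by symbol among the 56748 identifiers of the count table. All 35 reached 10 counts in at least 3 of the 6 samples, and all were among the 18188 genes tested. The RNA-Seq compared ureters dissected from wildtype embryos of the NMRI mouse strain at E12.5 and kept as explants for 18 h. The 3 control samples received water and the other 3 received 15 mM LiCl, an inhibitor of GSK3 used to activate canonical WNT signaling. Both groups share strain, genotype, stage and culture period, and neither carries a transgene. How many ureters made up a sample, and whether samples came from separate cultures, is not given in the sources used here, so p-values measure only the spread between these samples, which may be technical.

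Neural crest cells reach the pelvic organs along nerves. Some stay with the axons as Schwann cell precursors, kept by the transcription factor SOX10 and by the receptor ERBB3, which binds neuregulin presented by the axon. Others become autonomic neurons under factors such as PHOX2A and HAND2, join into ganglia and, in the sympathetic lineage, make noradrenaline from tyrosine by TH, DDC and DBH in turn. In dissected ureters such cells are a minority beside mesenchyme and epithelium. In bulk RNA, fewer cells of a type and less RNA per cell cannot be told apart.

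Library totals lay between 28473436 and 31266945 counts, and the median log2 fold change over all tested genes was -0.01. Markers of the labelled tissue were present in all samples, given here as summed CPM (counts scaled to the TMM-normalized library size). For 5 mesenchymal genes the sum was 822 to 859 CPM in controls and 671 to 694 CPM after LiCl. For 5 epithelial genes it was 848 to 1087 CPM in controls and 662 to 691 CPM after LiCl. Glial and neuronal markers were detected in every sample, whereas *Pnmt*, the adrenaline-forming enzyme of chromaffin cells, had at most 2 counts and *Tyr*, the pigment enzyme of melanocytes, was at 0 throughout. The list of 4 melanoblast genes that holds *Tyr* still summed to 10.6 to 12.9 CPM in controls and 6.47 to 9.45 CPM after LiCl. *Th*, *Dbh* and *Chga*, which chromaffin cells share with neurons, were expressed. Absence of either cell type was not tested. Skeletal muscle genes set samples apart within the LiCl group. The summed level of 5 of them was 25.0 CPM in LiCl 1 and 54.6 CPM in LiCl 3, but 2.68 CPM in LiCl 2 and 1.25 to 3.32 CPM in the controls. Counts of changed members are therefore also given with LiCl 1 and 3 left out, a comparison of 1 LiCl sample with 3 controls that assumes the lone sample to vary like the controls.

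The comparison of LiCl with water asked which of these genes differ after LiCl. A gene was called when it differed by more than 1 on the log2 scale in either direction and its adjusted p was below 0.05, from edgeR's quasi-likelihood test with Benjamini-Hochberg adjustment over all tested genes.

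After LiCl, 4 members were called lower and 0 higher. The glial calcium-binding protein gene *S100b* fell 3.01-fold, the noradrenaline-forming enzyme gene *Dbh* 3.13-fold, the decarboxylase gene *Ddc* 2.37-fold and the synaptic vesicle calcium sensor gene *Syt1* 2.03-fold. Among all genes tested, 4.59% were called lower and 2.74% higher. At an adjusted p under 0.05 without a fold minimum, 16 members were lower and 1, *Ntrk3*, was higher, against 22.4% and 21.1% of all genes. These shares are also the background for the counts of classes, roles and lists below. Of the remaining 18 members, 10 passed under none of the alternative settings. With LiCl 1 and 3 left out, 3 members were called lower, 8 were lower at any fold change and 2, *Foxd3* and *Isl1*, were higher. In that setting 3.2% of all genes tested were called lower and 1.96% higher, and 10.9% were lower and 10.4% higher at any fold change. The members that then no longer passed were *Erbb3*, *Phox2a*, *Tlx2*, *Chga*, *Cartpt*, *Prph*, *Nefl*, *Gap43* and *Ntrk3*. Without a fold minimum, 11 to 20 members were lower when single samples were left out, with the highest count without LiCl 2 and the lowest without control 3. Of all genes tested, 17% to 19.7% were lower with single samples left out.

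The 3 LiCl samples lay below all 3 controls for 16 members and above them for 2, *Foxd3* and *Ntrk3*. Over all tested genes these shares were 27.8% and 26.4%. The median log2 fold change over the 35 members was -0.34, with 29 below and 6 above 0. Of the 17 members that passed without a fold minimum, 8 did so under every alternative in which they were tested, namely *Ednrb*, *S100b*, *Nrg1*, *L1cam*, *Dbh*, *Ddc*, *Syt1* and *Stmn2*. This count leaves out glmTreat, which tests against the fold minimum.

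**Figure D1:**
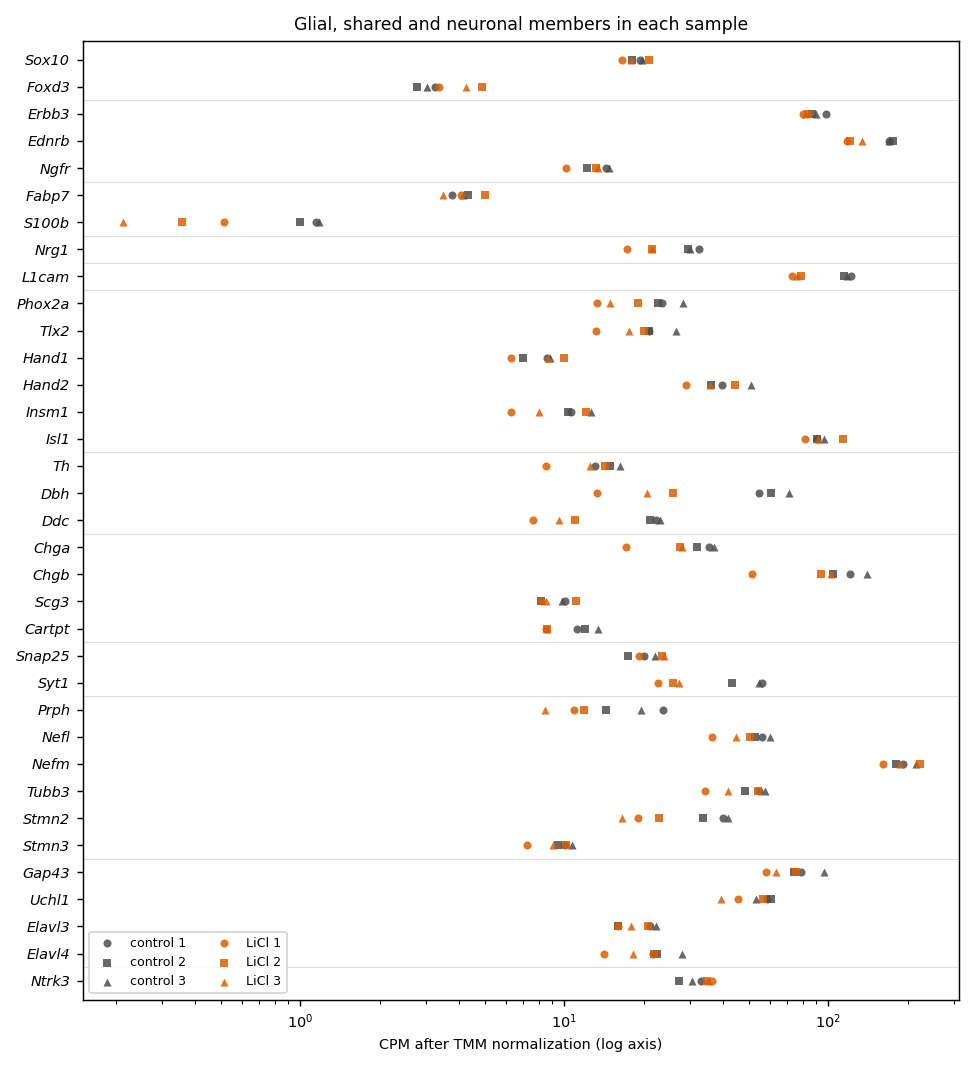
Level of each of the 35 members in each sample, in CPM on a log axis, with controls in grey, LiCl in orange and the marker shape giving the replicate number. The LiCl points of *Dbh*, *Ddc*, *Syt1* and *S100b* lie clear of the control points, while those of *Sox10*, *Isl1* and *Nefm* lie on both sides of them.

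Glial and neuronal genes were then compared. Of the 7 glial members, 1 was called lower, 3 were lower at any fold change (42.9%), and the median log2 fold change was -0.16, or -0.052 without LiCl 1. Of the 26 neuronal members, 3 were called lower, 11 were lower at any fold change (42.3%), and the median was -0.35. Over all genes tested, 22.4% were lower at any fold change. The mean log2 CPM of the neuronal members exceeded that of the glial members by 1.13, 1.08 and 1.26 in the controls and by 0.76, 1.05 and 0.97 in the LiCl samples. All LiCl differences were thus below all control differences, with LiCl 2 close to control 2. Summed CPM, in which abundant members weigh most, did not show this order. The glial sum was 301 to 310 CPM in the controls and 233 to 256 CPM after LiCl, without overlap. The neuronal sum was 1041 to 1248 CPM against 746 to 1043 CPM, and the groups overlapped. With LiCl 1 and 3 left out, the neuronal median was -0.0863 and the glial median -0.059, and 4 neuronal and 2 glial members were lower at any fold change.

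The sample with the highest level was often the same for the neuronal genes. Control 3 had the highest control level for 21 of the 26 neuronal members and for 27.4% of all tested genes, and LiCl 2 the highest LiCl level for 20 of the 26 and for 34.2% of all. Glial members were spread more evenly, with LiCl 2 highest for 4 of 7. Control 3 was also the control highest in endothelial and macrophage genes, with summed levels of 518 CPM for 5 endothelial genes (415 and 432 CPM in the other controls) and of 66.0 CPM for 5 macrophage genes (41.6 and 49.2 CPM). It was the lowest control for the 5 epithelial genes (848 CPM against 1087 and 970 CPM) and for the 5 mesenchymal genes (822 CPM against 859 and 828 CPM). Among the LiCl samples, the summed level of the neuronal members was 746, 1043 and 900.2 CPM in LiCl 1, 2 and 3. LiCl 2, the highest, had the least skeletal muscle RNA, but LiCl 3, with the most, was above LiCl 1. The part of other cell types in these levels was not tested.

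**Figure D2:**
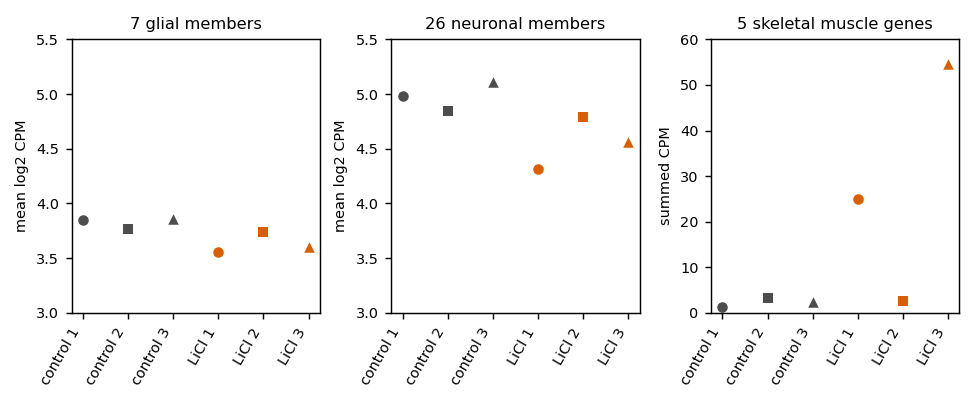
Mean log2 CPM of the glial members (left) and of the neuronal members (middle) in each sample, and summed CPM of 5 skeletal muscle genes (right), with controls in grey and LiCl in orange. The neuronal mean ranges from 4.32 in LiCl 1 to 5.11 in control 3, and among the LiCl samples it is highest in LiCl 2, where the muscle sum is 2.68 CPM.

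Among the glial regulators, *Sox10*, the factor that specifies and maintains crest-derived glia, was at 19.4, 18.0 and 19.8 CPM in the controls and at 16.5, 21.0 and 17.9 CPM after LiCl. The groups overlapped, and its log2 fold change of -0.05 had a 95% interval of -0.26 to 0.17 (adjusted p = 0.71). *Foxd3*, a factor of early crest cells and Schwann cell precursors, was at 3.23, 2.77 and 3.04 CPM against 3.35, 4.87 and 4.26 CPM. Every LiCl sample was above every control, LiCl 1 only just, and the log2 fold change of 0.46 (SE 0.17) missed the threshold (adjusted p = 0.056). Without LiCl 1 it was 0.60 (adjusted p = 0.021), and with LiCl 1 and 3 left out 0.70 (adjusted p = 0.049).

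The receptors by which glial precursors sense their surroundings differed from each other. *Ednrb*, the endothelin receptor of crest cells, was the most abundant glial member per length in the controls (39.8 ± 1.0 FPKM, SD, n = 3). It was at 169.6, 176 and 170.0 CPM in the controls and at 118, 121 and 135 CPM after LiCl. The groups were well apart, and *Ednrb* fell by 0.46 on the log2 scale (SE 0.06, adjusted p = 2.3e-04). *Erbb3* was at 98.6, 87.1 and 90.2 CPM against 80.3, 83.8 and 82.0 CPM. All LiCl samples were lower, by a small step: the log2 fold change was -0.16 (SE 0.06, adjusted p = 0.039), and it no longer passed without control 1, control 3 or any single LiCl sample, with adjusted p up to 0.12, nor with DESeq2 or the replicate number as a block (adjusted p = 0.084 in each). *Ngfr*, the p75 neurotrophin receptor, overlapped between groups (log2 fold change -0.18, adjusted p = 0.29). *Ednrb* is also made by mesenchymal and vascular cells in many organs, and its cell source cannot be told from these data.

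Of the glial proteins, *Fabp7*, a lipid carrier of radial glia and Schwann cell precursors, lay between 3.48 and 5.01 CPM in all samples (log2 fold change 0.04, adjusted p = 0.87). *S100b* was the weakest member per length, at 0.738 ± 0.060 FPKM in the controls. The controls gave 33, 31 and 36 counts for it, and the LiCl samples 16, 10 and 6. The groups did not overlap, and it fell by 1.59 on the log2 scale (SE 0.33, adjusted p = 0.0039). At such counts the size is imprecise, with a 95% interval of -2.32 to -0.85. The call remained when any single sample was left out.

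The pair shared by axons and glia fell by similar steps. *Nrg1*, which encodes the ligand of the ERBB receptors, was at 32.5, 29.3 and 29.9 CPM in the controls and at 17.4, 21.5 and 21.6 CPM after LiCl. It fell by 0.60 on the log2 scale (SE 0.09, adjusted p = 7.0e-04). *L1cam*, an adhesion molecule of axons and Schwann cells that collecting duct and ureteric epithelium also express, was at 123, 115 and 118 CPM against 73.0, 78.8 and 76.5 CPM. It fell by 0.64 (SE 0.05, adjusted p = 1.7e-05). Both lay lower in every LiCl sample. In the same samples the summed level of the 5 epithelial genes was 662 to 691 CPM after LiCl against 848 to 1087 CPM in controls. Of these 5 genes, 3 were lower and 1 was higher at any fold change. The sum of the 5 mesenchymal genes was also lower, at 671 to 694 CPM against 822 to 859 CPM. The part of the epithelium in the change of *L1cam* was not tested.

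**Figure D3:**
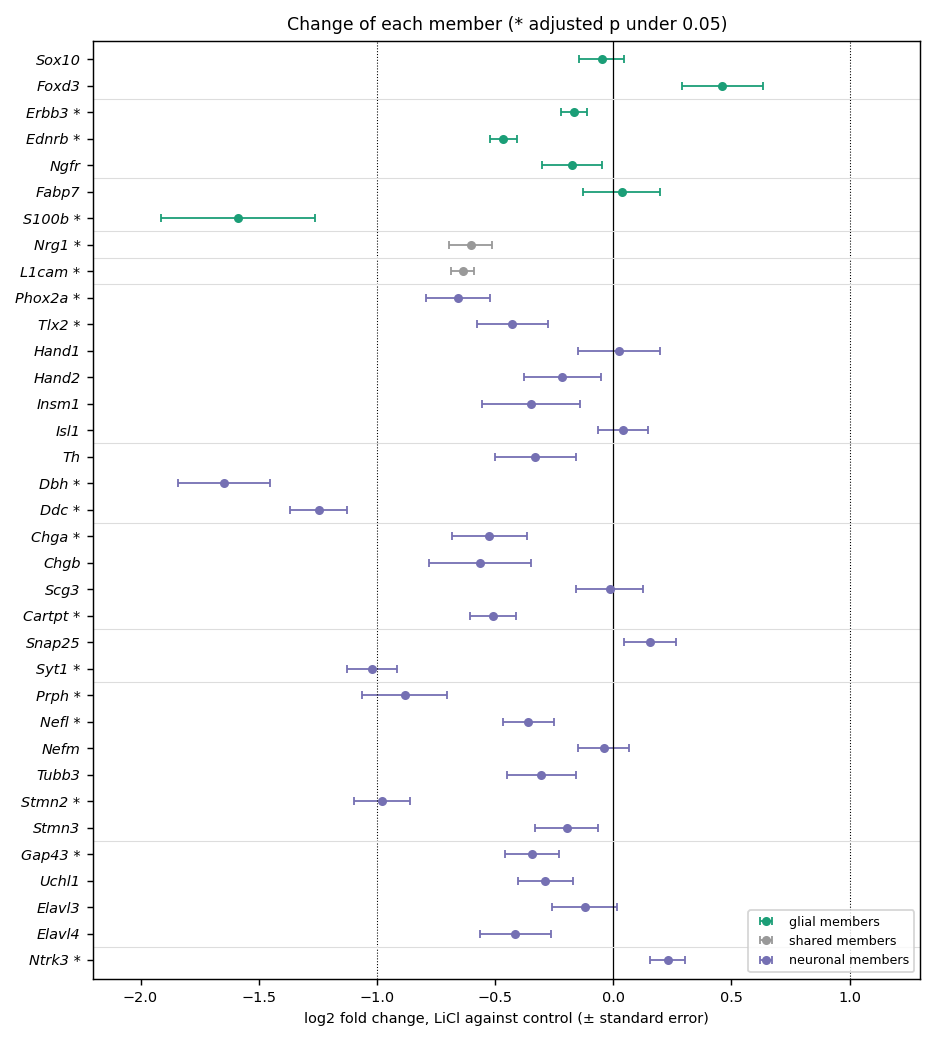
Log2 fold change of each member, LiCl against control, with its standard error, coloured by class, with dotted lines at the fold minimum of 1 in either direction and an asterisk at adjusted p under 0.05. Members left of -1 are *S100b*, *Dbh*, *Ddc* and *Syt1*, and *Stmn2* lies just inside at -0.98.

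Of the 6 neuronal regulators, 2 were lower at any fold change and 0 were called. *Phox2a*, a homeodomain factor of autonomic neurons, was at 23.5, 22.6 and 28.2 CPM in the controls and at 13.3, 19.0 and 14.9 CPM after LiCl. All LiCl samples were lower, and it fell by 0.66 on the log2 scale (SE 0.13, adjusted p = 0.0037), but with LiCl 1 and 3 left out the log2 fold change was -0.37 (adjusted p = 0.093). *Phox2a* shares exons on opposite strands with *Inppl1*, which had 8275 to 10273 counts, and the strand setting of the counting is not given in the sources used here, so reads of both may not be fully separated. *Tlx2*, a homeobox gene of crest-derived neurons, had a log2 fold change of -0.43 (adjusted p = 0.043) and no longer passed without any single control, without LiCl 1 or without LiCl 3, with adjusted p up to 0.17.

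The other regulators overlapped between groups. *Isl1* is a LIM homeobox gene of autonomic and sensory neurons that other tissues also use. It was at 90.7, 90.8 and 96.9 CPM against 81.4, 114 and 91.2 CPM, with LiCl samples on both sides of the controls (log2 fold change 0.04, adjusted p = 0.77). *Hand1* and *Hand2*, basic helix-loop-helix genes of sympathetic neurons that mesenchyme of several organs also uses, had log2 fold changes of 0.02 (adjusted p = 0.92) and -0.21 (adjusted p = 0.31), and *Hand2* shares exons on opposite strands with *Hand2os1*. *Insm1*, a zinc finger gene of differentiating neuroendocrine cells and neurons, had -0.35 (adjusted p = 0.21), and -0.64 without LiCl 2 (adjusted p = 0.0091).

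The 3 enzymes of noradrenaline synthesis did not change by equal amounts. *Th*, which makes L-DOPA from tyrosine, was at 13.1, 14.9 and 16.3 CPM in the controls and at 8.53, 14.3 and 12.6 CPM after LiCl. The groups overlapped, with LiCl 1 lowest, and the log2 fold change was -0.33 (SE 0.17, 95% interval -0.71 to 0.06, adjusted p = 0.15). *Ddc*, which turns L-DOPA into dopamine, was at 22.4, 21.1 and 23.1 CPM against 7.59, 11.0 and 9.58 CPM. Every LiCl sample lay far below every control, and *Ddc* fell by 1.25 on the log2 scale (SE 0.12, adjusted p = 6.0e-05). *Dbh*, which turns dopamine into noradrenaline, was at 54.6, 60.7 and 71.2 CPM against 13.4, 25.8 and 20.6 CPM. The highest LiCl level was thus well below the lowest control level, and *Dbh* fell by 1.65 (SE 0.20, adjusted p = 1.9e-04). With LiCl 1 and 3 left out, *Dbh* and *Ddc* were still called, at log2 fold changes of -1.26 and -1.01, and *Th* was at -0.04. Without LiCl 2 alone, *Th* was at -0.49 and passed the test (adjusted p = 0.046). *Ddc* is also made in epithelia such as the proximal tubule of the kidney, and its cell source cannot be told from these data.

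Ratios of 2 genes within a sample do not depend on library size. The *Dbh* to *Th* ratio of counts was 4.16, 4.07 and 4.37 in the controls and 1.57, 1.81 and 1.64 after LiCl. Each group was tight and the groups lay far apart (4.20 ± 0.15 against 1.67 ± 0.12, SD, n = 3). The *Ddc* to *Th* ratio was 1.51 ± 0.17 against 0.807 ± 0.073. The 7 ratios computed, of which 6 are given here, were chosen after the genes' values were seen. Of the 7, 6 did not overlap between groups, and each of those had p = 0.1 in the two-sided exact permutation test (adjusted over the 7, 0.117), the smallest value that 3 samples against 3 allow. The exception was *Erbb3* to *Sox10*, at 4.82 ± 0.26 against 4.48 ± 0.45 (exact permutation p = 0.5).

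**Figure D4:**
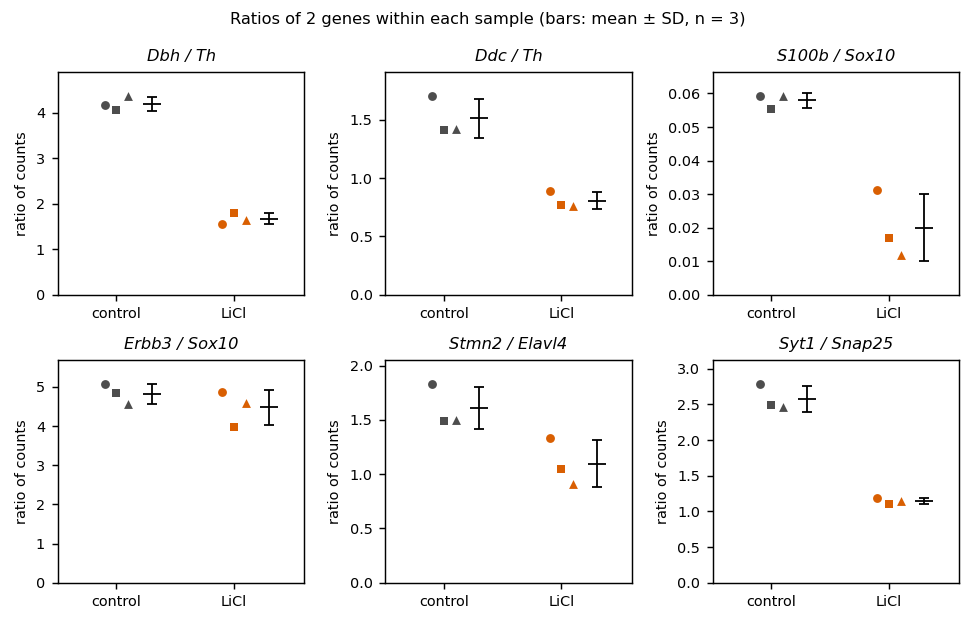
Ratios of the counts of 2 genes within each sample for 6 gene pairs, with marker shape giving the replicate number and bars the mean ± SD of 3 samples. The *Dbh* to *Th* ratio is 4.20 in controls and 1.67 after LiCl, and the groups overlap only for *Erbb3* to *Sox10*. Counts are not divided by gene length, so ratios are compared between groups and not between panels.

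The proximal promoters of the 3 enzyme genes are shown because these genes of one pathway changed unequally. RefSeq windows of 250 bases before to 50 after the start, on GRCm38.p6, were matched to 23 of the 35 members, and the 250 bases before the start are printed 5′ to 3′ on the strand of the gene, in lower case with capitals marking matches to any of 5 motifs searched on both strands. The windows lie at chr7:142899996-142900245 (minus strand) for *Th*, chr11:11898145-11898394 (minus strand, the first of 2 listed starts) for *Ddc* and chr2:27165257-27165506 (plus strand) for *Dbh*.
Th: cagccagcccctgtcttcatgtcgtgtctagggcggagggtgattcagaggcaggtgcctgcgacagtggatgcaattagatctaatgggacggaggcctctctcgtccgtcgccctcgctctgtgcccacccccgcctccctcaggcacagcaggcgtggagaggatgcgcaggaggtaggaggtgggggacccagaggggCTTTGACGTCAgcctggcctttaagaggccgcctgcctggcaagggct
Ddc: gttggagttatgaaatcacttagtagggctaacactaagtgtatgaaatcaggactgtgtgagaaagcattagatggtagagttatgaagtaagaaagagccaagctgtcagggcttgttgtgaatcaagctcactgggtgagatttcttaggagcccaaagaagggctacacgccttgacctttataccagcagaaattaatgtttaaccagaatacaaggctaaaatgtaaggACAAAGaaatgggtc
Dbh: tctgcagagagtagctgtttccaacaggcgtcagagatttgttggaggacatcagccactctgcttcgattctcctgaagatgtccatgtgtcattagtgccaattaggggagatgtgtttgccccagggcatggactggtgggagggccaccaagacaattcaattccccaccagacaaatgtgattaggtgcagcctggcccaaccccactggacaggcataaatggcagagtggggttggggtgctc

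The 5 motifs were searched over the whole windows. The TCF/LEF core CTTTGA, read by the nuclear partners of β-catenin, was in 3 of the 23 member windows (*Ddc*, *Stmn3* and *Th*) and in 16.0% of all 32851 windows. The cAMP response element core TGACGT was in 8 member windows (*Cartpt*, *Chga*, *Chgb*, *Ednrb*, *Elavl4*, *Foxd3*, *Isl1* and *Th*) and in 7.51% of all. In *Th* both overlap, starting 48 and 45 bases before the start. The match to the cAMP core on the opposite strand, 43 bases before the start, overlaps the first within the letters TGACGTCA and is not a separate stretch. The SOX core ACAAAG was in 3 member windows, *Ddc* 15 bases before the start among them, and in 18.7% of all, the RE1 half-site CAGCACC in 3 and in 7.14%, and the homeodomain core TAATTA in 1, *Hand2*, and in 5.29%. The *Ddc* window held the TCF/LEF core on the opposite strand from 4 bases after the start, beyond the printed stretch. The *Dbh* window held none of the 5, which says only that these letters are not in it. A match is a description of sequence and not a binding site.

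Of the 4 genes for secretory granules and peptides, 2 were lower at any fold change. *Cartpt*, which encodes the CART peptide, was at 11.2, 12.0 and 13.4 CPM in the controls and at 8.53, 8.59 and 8.62 CPM after LiCl. The LiCl samples were nearly equal and below all controls, and *Cartpt* fell by 0.51 on the log2 scale (SE 0.10, adjusted p = 0.0026). *Chga*, the granule protein chromogranin A, was at 35.5, 31.8 and 36.9 CPM against 17.1, 27.4 and 28.0 CPM. LiCl 1 stood below the other LiCl samples, and the log2 fold change of -0.52 (SE 0.16, adjusted p = 0.026) did not pass without control 1 (adjusted p = 0.062) or control 3 (adjusted p = 0.086). *Chgb*, chromogranin B, showed the same low value in LiCl 1, with 121, 104 and 141 CPM against 51.7, 93.9 and 102 CPM, and missed the threshold (log2 fold change -0.56, SE 0.22, adjusted p = 0.061), which it passed without LiCl 3 (adjusted p = 0.036) and with the replicate block (adjusted p = 0.042). *Scg3*, a granule sorting protein, overlapped between groups (log2 fold change -0.01, adjusted p = 0.94).

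The pair of genes for synaptic release parted. *Syt1* was at 56.0, 43.4 and 54.6 CPM in the controls and at 22.8, 25.9 and 27.3 CPM after LiCl. No LiCl sample came near a control, and *Syt1* fell by 1.02 on the log2 scale (SE 0.10, adjusted p = 8.2e-05). *Snap25*, the membrane fusion protein with which synaptotagmin acts, was at 20.1, 17.5 and 22.2 CPM against 19.2, 23.5 and 23.8 CPM. The groups overlapped (log2 fold change 0.15, 95% interval -0.09 to 0.40, adjusted p = 0.28). The *Syt1* to *Snap25* ratio of counts was 2.58 ± 0.18 in the controls and 1.14 ± 0.04 after LiCl. The fold change of *Syt1* sits at the threshold, and without control 1, control 3 or LiCl 1 it was -0.96, -0.97 and -0.95, which ends the call but not the adjusted p under 0.05.

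Of the 6 cytoskeletal genes, 3 were lower at any fold change. *Stmn2*, a tubulin-binding protein of growing axons, was at 39.9, 33.7 and 41.8 CPM in the controls and at 19.0, 22.9 and 16.6 CPM after LiCl. It fell by 0.98 on the log2 scale (SE 0.12, adjusted p = 2.2e-04), just short of the fold minimum, and was past it without control 2 (-1.06) or LiCl 2 (-1.11). *Prph*, the intermediate filament peripherin of peripheral neurons, was at 23.6, 14.4 and 19.5 CPM against 10.9, 11.8 and 8.44 CPM. It fell by 0.88 (SE 0.18, adjusted p = 0.0039), with the lowest control close to the highest LiCl sample, and was past the fold minimum without control 2 (-1.05).

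The neurofilament genes differed from *Prph*. *Nefl*, the light chain, was at 56.2, 52.7 and 60.2 CPM against 36.4, 50.6 and 44.9 CPM. Its log2 fold change of -0.36 (SE 0.11, adjusted p = 0.023) did not pass without control 1, control 3 or LiCl 3, with adjusted p up to 0.091. *Nefm*, the medium chain, was the most abundant of them per length (33.5 ± 3.0 FPKM in controls) and overlapped between groups (log2 fold change -0.04, 95% interval -0.29 to 0.20, adjusted p = 0.79). *Nefl* and *Nefm* share exons on opposite strands. *Tubb3*, the neuronal tubulin, and *Stmn3*, a relative of *Stmn2*, had log2 fold changes of -0.30 (adjusted p = 0.12) and -0.20 (adjusted p = 0.26). Both were lowest in LiCl 1, with LiCl 2 among the controls, and without LiCl 2 *Tubb3* was at -0.50 and passed (adjusted p = 0.0054).

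Of the growth and RNA-binding proteins, *Gap43*, a growth cone protein and the most abundant member per length (54.1 ± 7.8 FPKM in controls), was at 78.7, 74.3 and 96.9 CPM against 58.3, 75.5 and 63.3 CPM. LiCl 2 lay above control 2, and the log2 fold change of -0.34 (SE 0.11, adjusted p = 0.036) did not pass without control 3, LiCl 1 or LiCl 3, with adjusted p up to 0.14, nor with the replicate number as a block. *Elavl4* and *Elavl3*, neuronal RNA-binding proteins, had log2 fold changes of -0.41 (adjusted p = 0.0503) and -0.12 (adjusted p = 0.50), and *Uchl1*, a neuronal ubiquitin hydrolase, -0.29 (adjusted p = 0.072). In each the groups overlapped, and LiCl 2 was the highest LiCl sample. *Elavl4* passed with DESeq2 (adjusted p = 0.021), with the replicate block (adjusted p = 0.038) and without LiCl 2 (adjusted p = 0.012). *Uchl1* likewise passed with DESeq2 (adjusted p = 0.044), with the block (adjusted p = 0.026) and without LiCl 2 (adjusted p = 0.0040).

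*Ntrk3*, the receptor of neurotrophin 3, which mesenchymal cells also make in several organs, was the only member that was higher at an adjusted p under 0.05. It was at 33.1, 27.2 and 30.5 CPM in the controls and at 36.4, 34.8 and 35.2 CPM after LiCl. The LiCl samples were all higher, and the log2 fold change of 0.23 (SE 0.07, adjusted p = 0.032) did not pass without control 2, control 3 or any single LiCl sample, with adjusted p up to 0.078. The other neurotrophin genes went separate ways. *Ntrk2*, the receptor of BDNF, was at 268, 233 and 246 CPM against 107, 121 and 105 CPM and was called lower (log2 fold change -1.16, SE 0.07, adjusted p = 3.4e-06). Of the ligands, *Bdnf* had a log2 fold change of 0.77 (adjusted p = 0.020) but did not pass without control 1, control 3 or LiCl 3, nor with LiCl 1 and 3 left out (adjusted p up to 0.082). *Ntf3*, the ligand of NTRK3, was at 0.00 (adjusted p = 0.99). Of these 7 genes beside the members, 4 were lower and 1 was higher at any fold change, against 22.4% and 21.1% of all genes tested.

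The partners of ERBB3 and EDNRB were read next. Of 6 further neuregulin and ERBB genes, 4 were lower at any fold change and 0 higher, against 22.4% and 21.1% of all genes tested. *Egfr*, chiefly an epithelial and mesenchymal receptor, was the one called, at 95.9, 75.7 and 82.6 CPM against 32.7, 35.7 and 37.8 CPM (log2 fold change -1.26, SE 0.09, adjusted p = 1.0e-05). *Erbb2*, with which ERBB3 forms its signaling dimer, had a log2 fold change of -0.30 (SE 0.04, adjusted p = 5.9e-04), and *Erbb4* one of 0.67 (SE 0.45, adjusted p = 0.26) at no more than 1.28 CPM. Of 6 endothelin genes, 5 were tested, with 2 lower, 1 higher and 0 called. *Edn3*, the ligand of EDNRB in the crest, was at 6.85, 8.76 and 7.96 CPM against 6.69, 8.70 and 7.52 CPM (log2 fold change -0.04, adjusted p = 0.82).

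Further genes of the same cell types were read from lists that do not hold the members. Of 18 other crest and glial genes, 17 were tested, with 2 higher and 5 lower at any fold change, a median log2 fold change of 0.03 and 1 call. The call was *Pax3*, a factor of early crest and of muscle progenitors, which rose from 2, 3 and 2 counts to 25, 23 and 24 counts. That is a ratio of 10.7 with a 95% counting interval of 4.92 to 27.5 (adjusted p = 1.2e-04). Its counts were alike in the 3 LiCl samples, whereas the 5 muscle genes were low in LiCl 2 and high in LiCl 1 and 3. The cell source of *Pax3* was not tested.

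Of 30 other autonomic neuron genes, 16 were lower (53.3%) and 1 was higher at any fold change, against 22.4% and 21.1% of all genes tested. Of the 30, 7 were called lower (23.3%, against 4.59% of all), and the median log2 fold change was -0.46. The genes for both subunits of the ganglionic nicotinic receptor were among the calls. *Chrna3* was at 9.95, 8.79 and 9.82 CPM in the controls and at 2.64, 3.36 and 3.33 CPM after LiCl (log2 fold change -1.61, SE 0.13, adjusted p = 2.2e-05), and *Chrnb4* had a log2 fold change of -1.60 (SE 0.32, adjusted p = 0.0031). In both, every LiCl sample was below every control. *Sncg*, the γ-synuclein of peripheral neurons, had -1.57 (adjusted p = 4.0e-04), *Slc18a3*, the vesicular acetylcholine transporter, -1.14 (adjusted p = 0.0013), and *Dcx*, a microtubule protein of young neurons, -1.05 (adjusted p = 0.0021). *Slc18a3* was at -0.99 without control 3, and *Dcx* at -0.94 to -0.98 without control 1, control 3, LiCl 1 or LiCl 3, each short of the fold minimum. The remaining calls, named after their values were seen, were *Vip*, a neuropeptide (log2 fold change -1.68, adjusted p = 0.0053), and *Slc6a2*, the noradrenaline transporter (log2 fold change -1.42, adjusted p = 0.0095). With LiCl 1 and 3 left out, 5 of the 7 calls were lost. *Chrnb4* (adjusted p = 0.0502), *Vip* (adjusted p = 0.055), *Slc6a2* (adjusted p = 0.073) and *Dcx* (adjusted p = 0.064) then missed the test, *Slc18a3* the fold minimum, and *Chrna3* and *Sncg* were still called.

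**Figure D5:**
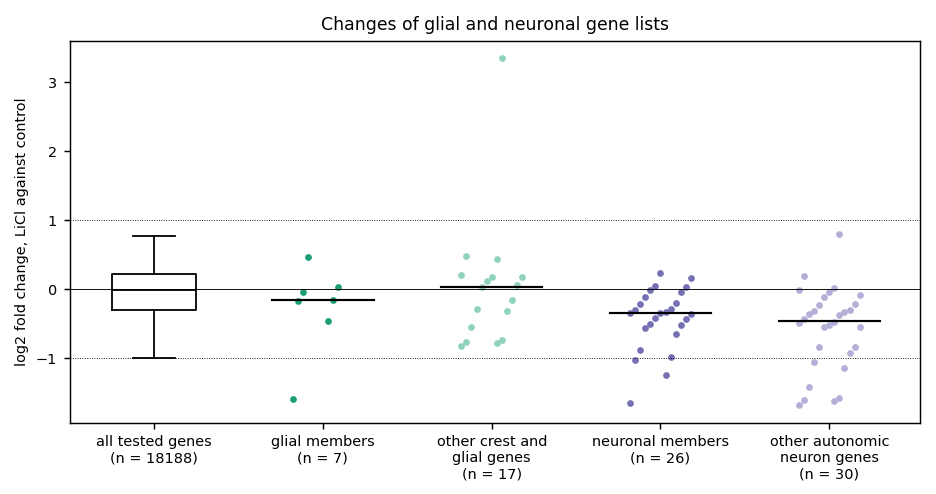
Log2 fold changes, LiCl against control, of all 18188 tested genes (box with the median and quartiles, whiskers at the 5th and 95th percentiles) and of each gene of 4 lists, with black lines at the medians. The medians are -0.01 for all genes, -0.16 and 0.03 for the glial lists and -0.35 and -0.46 for the neuronal lists, and *Pax3* is the point above 3.

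Other pairs were taken from the same class of members, glial or neuronal. The *S100b* to *Sox10* ratio was 0.0579 ± 0.0022 in the controls and 0.0200 ± 0.0100 after LiCl. The *Stmn2* to *Elavl4* ratio was 1.61 ± 0.20 against 1.10 ± 0.22. *Sox10* and *Elavl4* had not passed the test themselves. Which of the 35 genes are read from the same cells cannot be told from bulk RNA.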

How the data were processed

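Polyadenylated RNA of 6 ureter explant samples was sequenced from stranded libraries. The authors deposited raw counts per gene, one column per sample, and FPKM values per sample. The submitters' processing notes list fastp 0.23, STAR 2.7, featureCounts 2.0, DESeq2 1.40 and GRCm39, whereas the study's methods name HISAT2 for the alignment. The annotation release and the strand setting of the counting are not given in the sources used here. The deposited FPKM equalled counts divided by DESeq2 size factors and gene length, within 0.001, in 13480 of 13480 genes with more than 50 counts, and serve here only to compare genes per length and as an alternative. Library totals were 28473436 to 31266945 counts, and counting error weighs most on the members with few counts, *S100b*, *Foxd3* and *Fabp7*.

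Groups and replicate numbers came from the sample labels. Symbols came from a GENCODE vM21 table for GRCm38 (52073 of 56748 identifiers), so no coordinates of counted genes are given. Promoter windows are RefSeq's on GRCm38.p6. The test was edgeR's quasi-likelihood F test (glmQLFit and glmQLFTest, version 4.0.16, R 4.3.3) on the counts after filterByExpr and TMM, with no covariates. This is the study's comparison with its thresholds, with edgeR in place of DESeq2, which was run as an alternative (version 1.42.0). The steps were tested on simulated data. A standard error is the size of the log2 fold change divided by the square root of F. CPM used TMM factors, and 0.5 was added before logs. The members and lists were chosen with earlier results of these data known, so no list was tested as a set. All members were named. From the further pathway lists, called genes (at most 5 per list and direction, by adjusted p) and direct partners of members were named, and from cell type lists only sums and genes at or near 0. Alternatives were other normalizations (size factors, library size only), DESeq2, other filters on low counts, glmTreat, the replicate number as a block, each sample left out, LiCl 1 and 3 left out, limma 3.58.1 on log2(FPKM + 1) and log2(FPKM + 0.1) with or without a filter at a mean FPKM of 0.5, and other class lists. Some genes of these lists are counted but not reported by name here.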

Additional observations from a re-analysis of the deposited data

How the results depend on the processing

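Over the 35 members and all alternatives, 0 called changes reversed. Where a count moved past 1.5 times, it did so as follows. Members called lower (4) were 1, 2 and 1 with limma on log2(FPKM + 1), on log2(FPKM + 0.1) and on log2(FPKM + 1) without a filter, and 1 with glmTreat, which tests against the fold minimum itself. Of all genes tested, 4.59% were called lower in the main fit and 0.884%, 2.7% and 0.424% in these limma settings. With single samples left out, that share was 4.22% to 4.71%. Glial members called lower (1) were 0 in each of these limma settings and with glmTreat, and 0 with 10 counts in every sample, where *S100b* was not tested. Neuronal members called lower (3) were 1 with limma on log2(FPKM + 1), with or without a filter, and 1 with glmTreat, and ranged from 2 to 5 with single samples left out (5 without control 2). Members higher at any fold change (1) were 2 without a filter and with LiCl 1 and 3 left out, 0 in the 3 limma settings, and 0 to 1 with single samples left out. Members lower at any fold change (16) were 8 with LiCl 1 and 3 left out. Glial members lower at any fold change (3) were 1 with limma on log2(FPKM + 1) and log2(FPKM + 0.1). Lower at any fold change were 20.1% and 19.9% of all genes tested in these settings. That share was 9.04% with limma without a filter and 17% to 19.7% with single samples left out. Higher at any fold change were 23.9%, 23.8% and 10.1% of all genes in the 3 limma settings. The share higher was 13.4% without a filter on low counts and 16.7% to 19.6% with single samples left out. Neuronal members lower at any fold change (11) were 4 with LiCl 1 and 3 left out, 7 with limma without a filter, and 7 (without control 3) to 16 (without LiCl 2) with single samples left out. The glial median (-0.16) ranged from -0.20 to -0.052 (without LiCl 1) with single samples left out. The neuronal median (-0.35) was -0.0863 with LiCl 1 and 3 left out. The neuronal minus glial difference of medians (-0.18) was -0.027 with LiCl 1 and 3 left out, -0.30 with *Ednrb* and *Ngfr* taken out of the glial class, and -0.32 (without LiCl 2) to -0.15 (without control 3) with single samples left out. The causes were not tested. The FPKM pseudocount of 1 shrinks fold changes of weak genes by construction. To look for pairing, the mean of each group was subtracted from each gene's log2 CPM. The remaining deviations of same-numbered control and LiCl samples correlated at 0.03, -0.09 and 0.10, so the numbers were not taken to pair them. With the replicate block, 4 members were called lower, and 17 were lower and 1 was higher at any fold change. Of all genes tested, 4.4% were then called lower, and 19.8% were lower and 18.6% higher at any fold change. *Erbb3* and *Gap43* no longer passed, and *Chgb*, *Uchl1* and *Elavl4* did. With 3 samples a group, *S100b* is limited by its counts.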

Other observations

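Of the 8 genes of the GDNF family list, ligands and receptors that guide crest-derived neurons and the ureteric bud, 6 were lower and 0 higher at any fold change, with a median log2 fold change of -0.75. Over all genes tested, 22.4% were lower and 21.1% higher at any fold change, and 4.59% were called lower. *Pspn*, the persephin ligand, was the one called lower (log2 fold change -1.27, SE 0.36, adjusted p = 0.019, by edgeR's quasi-likelihood test), at 15, 21 and 12 counts in the controls and 7, 6 and 6 counts after LiCl. At these counts the call was lost without control 2 or any single LiCl sample, with adjusted p up to 0.072, and with DESeq2. Among the other autonomic neuron genes, *Celf4*, a neuronal RNA-binding protein named after its values were seen, was the one that rose, from 9.81, 9.28 and 10.2 CPM to 18.4, 16.3 and 16.4 CPM (log2 fold change 0.80, SE 0.09, adjusted p = 1.3e-04), with no overlap between groups.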
